A study of Homo sapiens with 8 samples.

Results

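Human chromosome 19 carries 246 protein-coding genes named ZNF plus digits and an optional letter in the RefSeq gene table of GRCh38.p14, out of 1451 protein-coding genes on that chromosome and 19970 on chromosomes 1 to 22 and X. All 246 were described here, against the other 1205 protein-coding genes of chromosome 19. Neighbouring members at most 500 kb apart formed 10 clusters of at least 5 genes, which held 232 members, and 14 members lay outside them. In the text the clusters are numbered C1 to C10 along the chromosome.

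Most C2H2 zinc finger genes of these clusters arose by tandem duplication, and many of their proteins carry a KRAB domain. KRAB zinc finger proteins bind DNA through their finger arrays, often in transposable elements, and recruit the co-repressor TRIM28, which brings the histone methyltransferase SETDB1 and trimethylation of H3K9. In many cell types the bodies and 3′ ends of the zinc finger genes themselves carry H3K9me3, placed in part through ZNF274, while their promoters stay active.

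Chromatin accessibility was profiled by ATAC-seq, in which Tn5 transposase cuts and tags open DNA. The cells were hTERT RPE-1, a telomerase-immortalised retinal pigment epithelial line, with genotype Plk1-/- EGFP-Plk1as: the kinase Plk1 is replaced by an EGFP-tagged analog-sensitive version that 3MB-PP1 blocks. All 8 libraries came from cells held in prometaphase with 5 µM STLC for 16 h and shaken off, and then kept in STLC for 2 h with 0.5% DMSO (4 libraries) or 10 µM 3MB-PP1 (4 libraries). The mitotic index was above 95%, 50000 cells entered each reaction, and every library comes from the same engineered line, so both groups share the loss of endogenous Plk1 and the arrest. The labels do not say whether the line is a single clone.

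Each library is represented by its own peak list, of 150577 to 252752 peaks. Read depth is unknown, a list holds only regions past its calling threshold, and a missing call is therefore not a lack of signal. The libraries numbered 1 and 3 had 0.868% to 0.933% of their peaks on chromosome X and those numbered 2 and 4 had 0.595% to 0.694%, in both groups, so treatment differences are also given within odd and even numbers. At annotated gene ends, the mesenchymal genes VIM, FN1, CDH2 and COL1A1 had peaks in all 8 lists, as had 3 of 8 pigment epithelium genes (MITF, OTX2 and PMEL) and 3 of 5 epithelial genes (KRT8, KRT18 and EPCAM). RPE65, which defines mature pigment epithelium, and the blood, liver and glial genes PTPRC, ALB and GFAP had none.

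The promoters of 6 members are shown because they span the range of the results: ZNF77 had the highest-ranked peak, ZNF274 one of the longest, ZNF91 and ZNF93 are known repressors of transposable elements, and ZNF726 and ZNF404 had no peak at either end or at a listed start in any list. Each runs 5′ to 3′ on the gene's own strand, from 250 bases before to 50 after the RefSeq start (GRCh38.p14), and capitals mark CCAAT or its reverse complement and the ETS core CCGGAA or its reverse complement. The windows are chr19:2944922-2945221 (minus strand), chr19:58182811-58183110 (plus), chr19:23395422-23395721 (minus), chr19:19900696-19900995 (plus), chr19:23914636-23914935 (plus) and chr19:43883915-43884214 (minus).
ZNF77: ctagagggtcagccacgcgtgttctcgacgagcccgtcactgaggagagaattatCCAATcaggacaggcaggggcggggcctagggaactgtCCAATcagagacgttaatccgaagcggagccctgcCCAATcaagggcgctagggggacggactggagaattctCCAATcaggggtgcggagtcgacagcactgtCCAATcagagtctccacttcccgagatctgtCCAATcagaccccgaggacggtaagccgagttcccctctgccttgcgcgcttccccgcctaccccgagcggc
ZNF274: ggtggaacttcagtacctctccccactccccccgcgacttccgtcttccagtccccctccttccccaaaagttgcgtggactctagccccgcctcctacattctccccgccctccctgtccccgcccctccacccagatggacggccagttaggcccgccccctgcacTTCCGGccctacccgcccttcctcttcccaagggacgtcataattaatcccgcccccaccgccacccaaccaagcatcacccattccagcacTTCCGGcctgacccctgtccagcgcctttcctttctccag
ZNF91: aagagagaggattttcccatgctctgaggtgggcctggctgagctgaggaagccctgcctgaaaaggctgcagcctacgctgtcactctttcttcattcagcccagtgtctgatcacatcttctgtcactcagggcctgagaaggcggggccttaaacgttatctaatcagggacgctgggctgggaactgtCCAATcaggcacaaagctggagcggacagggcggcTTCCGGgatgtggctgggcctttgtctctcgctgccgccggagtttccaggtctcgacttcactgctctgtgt
ZNF93: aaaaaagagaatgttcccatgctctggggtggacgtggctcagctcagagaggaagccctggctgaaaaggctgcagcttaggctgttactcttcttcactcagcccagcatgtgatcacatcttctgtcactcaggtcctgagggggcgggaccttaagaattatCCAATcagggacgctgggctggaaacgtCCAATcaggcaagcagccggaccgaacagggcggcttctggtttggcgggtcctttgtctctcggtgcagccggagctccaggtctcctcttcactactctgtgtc
ZNF726: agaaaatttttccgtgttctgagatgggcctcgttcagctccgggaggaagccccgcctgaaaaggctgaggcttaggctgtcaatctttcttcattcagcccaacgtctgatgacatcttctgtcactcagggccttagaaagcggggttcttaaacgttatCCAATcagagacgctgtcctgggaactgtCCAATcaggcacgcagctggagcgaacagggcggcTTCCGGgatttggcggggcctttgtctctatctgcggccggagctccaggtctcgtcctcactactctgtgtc
ZNF404: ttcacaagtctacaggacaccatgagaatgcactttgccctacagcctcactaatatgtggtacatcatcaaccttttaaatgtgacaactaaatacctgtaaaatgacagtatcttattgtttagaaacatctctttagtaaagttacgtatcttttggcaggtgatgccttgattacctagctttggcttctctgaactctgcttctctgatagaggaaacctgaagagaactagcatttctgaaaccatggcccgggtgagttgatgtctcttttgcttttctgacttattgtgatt
ZNF77 holds 6 CCAAT boxes and ZNF274 holds 2 ETS cores. ZNF91, ZNF93 and ZNF726, all of C4, are close relatives, with 80.7% to 84.3% of aligned bases identical between each pair. ZNF404 has neither motif, 2 CpG dinucleotides and 39% GC.

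RefSeq promoter sequences and a strand were found for 216 of the 246 members. The ETS core stood in 55.6% of these 216 promoters, against 21.8% of 969 promoters of other chromosome 19 genes and 22.7% of 15811 promoters of all protein-coding genes. CCAAT stood in 54.2%, 37.4% and 36.4% of the same sets, and the GC box (GGGCGG) in 67.1%, 65.7% and 58.3%. The TATA box (TATAAA) stood in 2.31%, 8.05% and 9.75%. GCCATNTT, the YY1 motif, stood in 14.4%, 9.18% and 7.91%. Both strands were searched, overlapping matches were counted and no motif was masked by another, so a GC box may overlap an ETS core. A match describes letters in a window and is not a bound site.

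Promoter letters also differed from cluster to cluster. In C4, all 29 promoters with a sequence held CCAAT, 79.3% held the ETS core, and the median number of CpG dinucleotides was 10, the lowest of the 10 clusters. In C9 the median CpG number was 29.5 and CCAAT stood in 35.7% of 14 promoters. Pairs of C4 promoters shared a median of 75.9% of aligned bases, whereas pairs from different clusters shared 50.3% and the other clusters ranged from 50.6% to 56.1%. Reads from such similar promoters can be hard to place, and how the authors treated reads with several matches is not given in the sources used here, and the bearing of this on calls in C4 was not tested.

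Peaks at the zinc finger genes sat at the 5′ end. Members had a peak overlapping the 1 kb on either side of the annotated start in 72.7%, 75.9%, 75.9% and 79.6% of the 216 genes in DMSO libraries 1 to 4, and in 83.3%, 82.4%, 81.0% and 81.5% with 3MB-PP1. At the 3′ end the shares were 2.78%, 6.94%, 5.09% and 8.33% with DMSO and 9.26%, 15.7%, 8.33% and 10.6% with 3MB-PP1. Other chromosome 19 genes had start peaks in 64.0% to 75.0% and 3′ peaks in 23.0% to 34.8%, and the start share of members was higher in 8 of 8 libraries, by 9.96 points on average. The gap between start and 3′ end was 70.7 ± 2.25 percentage points in members (SD, n = 8 libraries) and 40.9 ± 1.24 in the other genes. In all 8 libraries the 3′ share was lower in members, by 19.8 points on average (exact two-sided sign-flip permutation test over libraries, p = 0.00781, the smallest possible, Benjamini-Hochberg adjusted p = 0.00955 over 11 within-library differences). Genes are not replicates here, and the test asks only whether libraries repeat a difference.

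**Figure D1:**
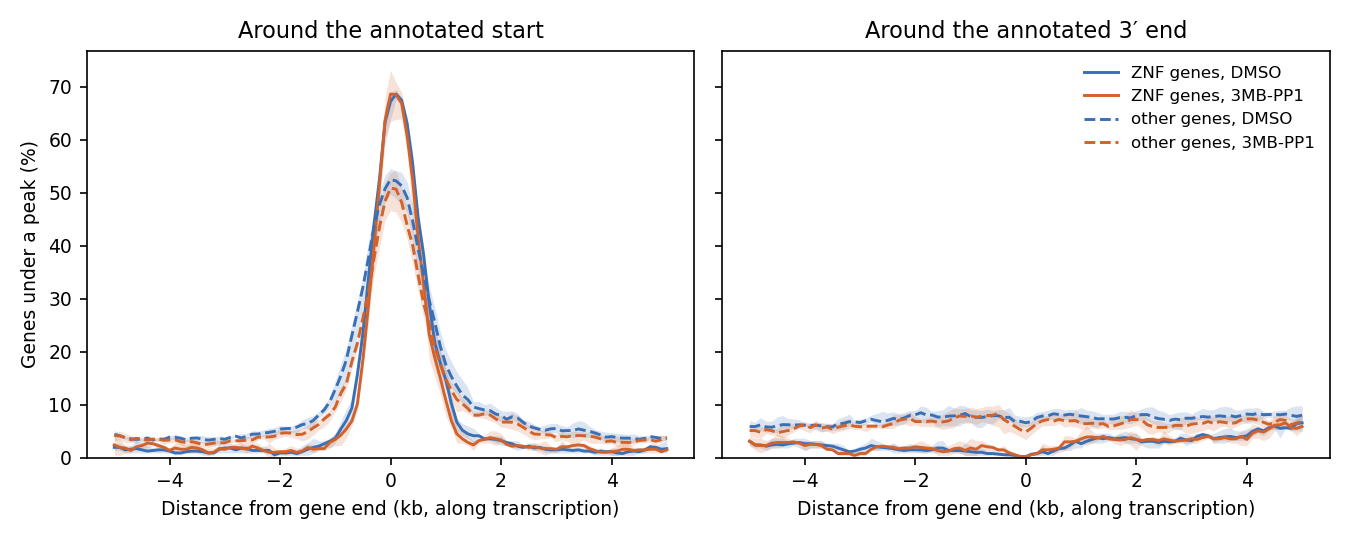
Percent of genes under a peak at each distance in kb from the annotated start (left) and the annotated 3′ end (right), for 216 zinc finger genes (solid) and 969 other chromosome 19 genes (dashed). Lines are means of 4 libraries and bands their range; at the start itself 67.2% (DMSO) and 68.6% (3MB-PP1) of zinc finger genes lay under a peak, and at the 3′ end itself 0.231% in both groups.

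The profile of peak coverage around the gene ends, read at points 100 bp apart, showed the same contrast. At the 3′ end position itself 0.231% of members lay under a peak in each group, against 6.6% (DMSO) and 4.9% (3MB-PP1) of other genes. No 3′ peak was called in any list for 155 of 216 members (71.8%), against 37.9% of the 969 other genes and 53.9% of all genes with a strand. A 3′ peak in 7 or 8 lists occurred at 6 members (2.78%, against 13.1% of the other genes and 8.28% of all): ZNF575, ZNF766, ZNF628, ZNF580, ZNF544 and ZNF324 (named after their values were seen). The start lay within 1 kb of another protein-coding gene's end in 12.5% of members and 25.1% of other genes. The same count was not made for 3′ ends. All 246 members were over 2 kb long, as were 1137 of the 1205 other genes. In shorter genes the windows around the start and the 3′ end overlap, so 1 peak can count for both. The bearing of this on the 3′ shares was not tested.

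Most members carried their peak in every library. An end peak, meaning a peak within 1 kb of either annotated end, was called in all 8 lists for 154 of 246 members (62.6%), against 60% of all protein-coding genes and 53.6% of other chromosome 19 genes. It was called in no list for 15 (6.1%, against 9.13% of all genes) and in 1 to 7 lists for 77. Part of the missing calls lay with the annotation: of the 15, 13 have a listed RefSeq start, and 5 of those (ZNF563, ZNF442, ZNF420, ZNF112 and ZNF444) had a peak at a listed start inside the gene in all 8 lists. ZNF420, for example, spans positions 37007902 to 37130368 and had its constant peak at 37077683 to 37079621. Counting listed starts instead, a rule chosen after the data were seen, 158 of 216 members (73.1%) had a peak in all 8 lists, against 62.7% of all genes. Members with none were ZNF43, ZNF726, ZNF404, ZNF296 and ZNF528 (2.31%, against 10.5% of all genes). The median number of listed starts was 1 per gene in members and in other genes.

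**Figure D2:**
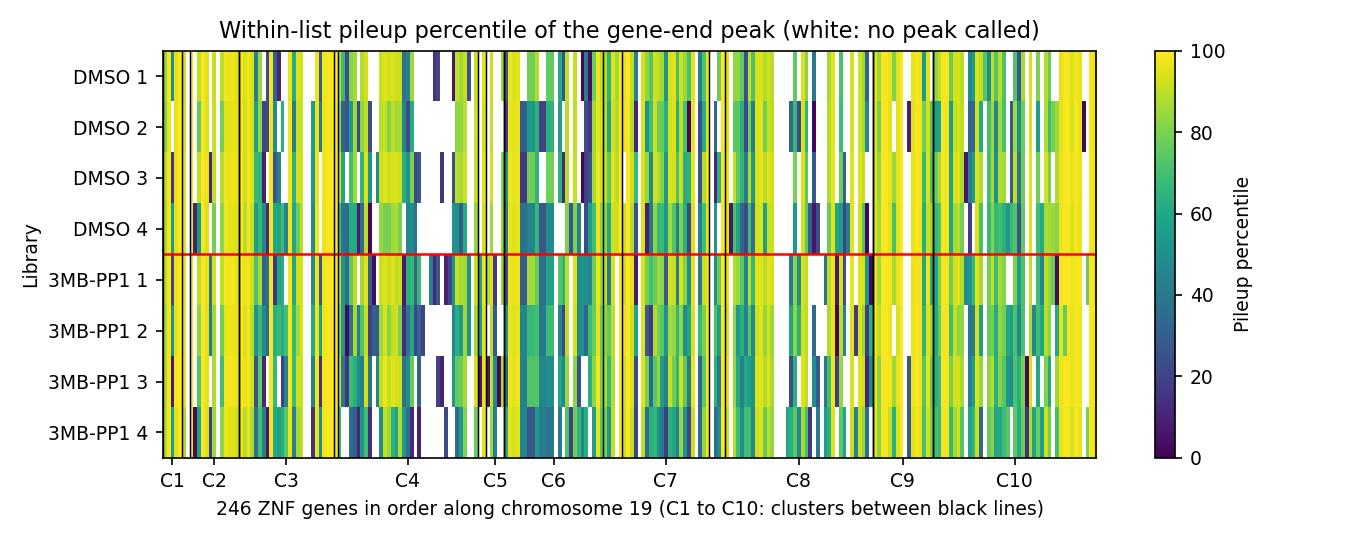
Within-list pileup percentile (colour, 0 to 100) of the end peak of 246 zinc finger genes in order along chromosome 19 (columns) in the 8 libraries (horizontal bands, DMSO above the red line); white means no peak called. The same columns are bright or white in most libraries, with the widest white stretch in C4. By cluster, the median percentile is highest in C1, C2 and C9, while single bright columns also lie elsewhere.

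The highest-ranked peaks belonged to ZNF77, ZNF576, ZNF473, ZNF333 and ZNF526. Rank is given as the pileup percentile, the percent of peaks in the same list with a pileup (fragment height, the authors' own value) at or below that peak. ZNF77 (positions 2933218 to 2944971, C1) had pileups of 130, 106, 164 and 90.8 in DMSO libraries 1 to 4 and 88.8, 86.0, 106 and 68.1 with 3MB-PP1. Its percentile ranged from 99.68 to 99.96 over the 8 lists, and its peak overlapped the printed promoter. ZNF473, which takes part in histone pre-mRNA processing, ranged from 99.4 to 99.9. Pileup has no stated scaling between libraries, so only its rank within a list is compared.

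A fixed list of 8 members held known transposon repressors and ZNF274. All 8 genes had an end peak in all 8 lists, as had 62.6% of all members and 60% of all genes, and the ranks of the 8 differed widely. ZNF274, which targets the 3′ ends of zinc finger genes, kept a percentile of 95.9 to 97.9 and peak lengths of 1765, 1694, 1912 and 1771 bp with DMSO and 1710, 1832, 1862 and 1979 bp with 3MB-PP1. ZNF91, which represses SVA elements, had percentiles of 85.7, 83.3, 86.4 and 30.4 with DMSO and 86.5, 54.2, 77.6 and 53.7 with 3MB-PP1. ZNF93, which represses L1 elements, had 86.1, 85.7, 85.9 and 61.4, and then 90.1, 87.1, 62.9 and 30.2. For both genes the groups overlapped, and the lowest value of each group was that of the library numbered 4. ZNF611 (64.4 to 90.2), ZNF649 (71.3 to 90.7), ZNF808 (54.0 to 83.5), ZNF417 (56.2 to 80.2) and ZNF587 (87.5 to 95.6) lay between, over all 8 lists.

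Of 19 genes of the machinery that KRAB proteins recruit, 18 had an end peak in all 8 lists. The median percentile over all 19, each averaged over the lists that called it, was 97. Among all genes 60% were called in all 8 lists, and the median percentile of those was 95.9 with DMSO and 96.1 with 3MB-PP1. TRIM28 itself, also on chromosome 19, ranged from 99.95 to 99.98, SETDB1 from 84.0 to 95.6 and the maintenance methyltransferase DNMT1 from 99.0 to 99.7. UHRF1, which targets DNMT1 to newly copied DNA, was called in 1 list, with 3MB-PP1. Peaks were shorter in every 3MB-PP1 list than in every DMSO list at 2 of the 18 (ATRX and CHD4) and longer at 1 (CBX5, the gene of HP1 alpha), and such changes occurred at 13.4% and 0.167% of all genes called in all 8 lists.

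Within libraries, peaks of zinc finger genes were more frequent, lower in rank and shorter than those of their neighbours on the chromosome. Their end-peak share exceeded that of other genes in 8 of 8 libraries, by 4.8 ± 3.83 points (SD, n = 8; exact sign-flip permutation p = 0.00781, adjusted p = 0.0104 over 4 measures). That direction depends on the window, since with 2.5 kb the difference was -1.92 points (exact permutation p = 0.25), and against genes outside the cluster spans it was 3.56 points (p = 0.0625, exact). The median percentile was lower in 8 of 8 libraries, by 10.7 points on average (84.3 against 95.0; adjusted p = 0.0104, same exact test). Median peak length was lower in 7 of 8, 904 against 1027 bp, a difference of -123 bp (adjusted p = 0.0156, exact permutation). At listed starts, members exceeded the others by 14.5 points, in 8 of 8 libraries (exact permutation p = 0.00781).

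Inside the genes, peaks were sparse. Peaks covered 1.14%, 1.62%, 1.54% and 2.37% of the 6.57 Mb of member interior (over 1 kb from both ends) in DMSO libraries 1 to 4, and 1.92%, 2.26%, 1.86% and 1.98% with 3MB-PP1. Other genes had 3.68% to 5.5% of their 22.6 Mb covered, and members were lower in 8 of 8 libraries, by 2.66 points on average (exact sign-flip permutation p = 0.00781, adjusted p = 0.0104). The treatment groups overlapped (difference 0.339 points, exact permutation p = 0.314). Merged over the lists, the interior held 973 regions, of which 646 (66.4%) came from a single list and 36 were in all 8. Of the 36, 28 lay near a listed start of some chromosome 19 gene, and 8 lay near neither a listed start nor a gene end, inside ZNF333, ZNF507, ZNF30, ZNF792, ZNF569, ZNF284, ZNF541 and ZNF610. ZNF30 and ZNF610 were not matched in the promoter table, so only the other 6 could be compared with a start of their own. The ZNF333 region spans positions 14704906 to 14706206 and the ZNF541 region 47537675 to 47540058. An interior peak in all 8 lists occurred in 57 members (23.2%), against 41.7% of 1137 other chromosome 19 genes and 50.8% of all genes over 2 kb. In 28 members (11.4%) no list had one, against 12.2% and 11.8%. The median gene length was 23151.5 bp in members and 12763 bp in the other chromosome 19 genes. Of the 973 regions, 1 was in every DMSO list and in no 3MB-PP1 list, and 3 had the reverse pattern. No such count over the interiors of other genes is given here, so these numbers are a description only. At gene ends the same rule was met by 0.0551% (DMSO) and 0.12% (3MB-PP1) of all genes.

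The comparison of 3MB-PP1 with DMSO asks whether blocking Plk1 alters access to these genes on mitotic chromosomes. More zinc finger genes had an end peak with 3MB-PP1: 84.6%, 83.3%, 81.7% and 81.7% of 246 genes, against 72.8%, 75.2%, 75.6% and 79.3% with DMSO. No 3MB-PP1 library lay below any DMSO library, and the means were 82.8 ± 1.38% and 75.7 ± 2.68% (SD, n = 4 each). The 7.11-point difference reached p = 0.0286 (exact permutation, two-sided), the smallest that 70 assignments of 4 and 4 libraries allow, and its adjusted p was 0.114 over 8 measures, so it did not pass the test. It was 8.94 points in odd and 5.28 in even numbers, where no p below 0.333 is possible. The sign depended on the calling threshold: counting only peaks at a -log10 q of 2 or more, it was -4.37 points (exact permutation p = 0.457). With every list reduced to 150577 peaks it was 5.08 points (exact p = 0.0286).

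Other chromosome 19 genes gave 72.9 ± 2.69% with DMSO and 76.0 ± 4.47% with 3MB-PP1 (SD, n = 4 each), with overlapping groups (difference 3.13 points, exact permutation p = 0.314). The excess of zinc finger genes over these was 3.98 points larger with 3MB-PP1, by 2.55 in odd and 5.41 in even numbers, and did not pass the test (exact permutation p = 0.114, adjusted p = 0.229). At listed starts members went from 84.5 ± 2.09% to 89.8 ± 0.378% (SD, n = 4 each), again without overlap. That difference of 5.32 points has an exact permutation p of 0.0286 and an adjusted p of 0.114 over all 28 treatment measures computed. Gene by gene, 53 members (21.5%) were called in more 3MB-PP1 than DMSO lists and 12 (4.88%) in more DMSO lists, against 14.2% and 10.4% of all genes and 19.6% and 11.5% of other chromosome 19 genes.

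**Figure D3:**
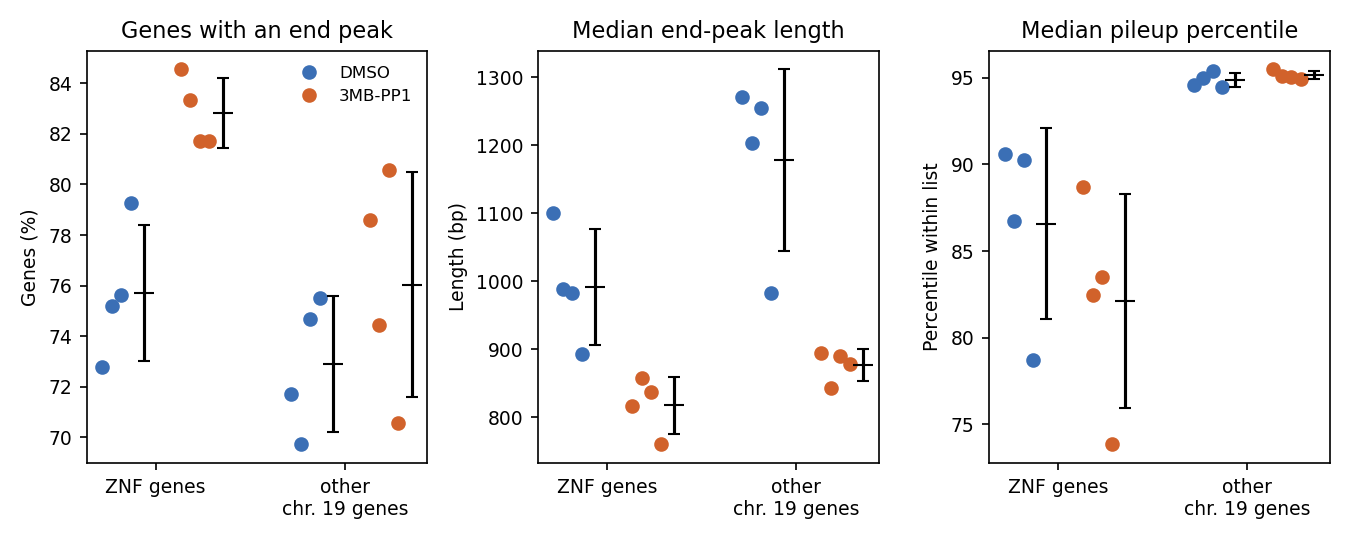
Percent of genes with an end peak, median end-peak length (bp) and median pileup percentile in each library (points; bars are mean and SD, n = 4), for 246 zinc finger genes and 1205 other chromosome 19 genes; axes do not start at 0. The share of zinc finger genes is 81.7% to 84.6% with 3MB-PP1 and 72.8% to 79.3% with DMSO, their peaks are shorter in every 3MB-PP1 library, and their percentiles overlap.

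Median end peaks were shorter in every 3MB-PP1 library than in every DMSO library, at members and at other chromosome 19 genes. The median length over called members was 1100, 989, 983 and 893 bp in DMSO libraries 1 to 4 and 816.5, 857, 837 and 760 bp with 3MB-PP1, without overlap. The means were 991 ± 84.8 and 818 ± 41.8 bp (SD, n = 4 each), a difference of -174 bp (exact two-sided permutation p = 0.0286, adjusted p = 0.114), and it was -215 bp in odd and -132.5 bp in even numbers. Other genes differed by -301 bp, from 1178 to 876 bp (exact permutation p = 0.0286). The gap between members and other genes was 128 bp smaller with 3MB-PP1, which missed the threshold (exact permutation p = 0.0571, adjusted p = 0.152). The member difference did not pass after adjustment. Over all peaks of a list the median length was 355 to 409 bp with DMSO and 269 to 324 bp with 3MB-PP1. Restricted to the 154 members called in all 8 lists the difference was -158 bp, and the exact permutation p was 0.114.

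Among these 154, 122 had a shorter mean peak with 3MB-PP1, with a median change of -101 bp, against 10490 of 11980 genes and -168 bp over all protein-coding genes called in all 8 lists. Every 3MB-PP1 length lay below every DMSO length at 17 members (11%, against 13.4% of all genes), and none was longer in this way (0.167% of all genes). Among the 17 were ZNF580 and, named after their values were seen, ZNF700, ZNF527, ZNF224 and ZNF552. ZNF527 measured 1469, 1582, 1841 and 1351 bp with DMSO and 754, 723, 911 and 820 bp with 3MB-PP1. ZNF552 measured 1235, 1533, 1689 and 1409 bp, and then 160, 227, 432 and 189 bp. In both genes the groups lay far apart, although the share of such members was no higher than in the genome. ZNF580, which has the longest mean end peak, measured 2724, 3062, 2875 and 2648 bp, and then 1277, 2571, 953 and 694 bp. Its DMSO peaks cover nearly the whole gene from before its start, as does its peak in 3MB-PP1 library 2. In 3MB-PP1 libraries 1 and 3 the peak lay around the start, and in library 4 near the 3′ end, at 55642600 to 55643293. The lengths of ZNF580 therefore do not all belong to the same site. ZNF628 passed the same rule with a mean of 2198 bp against 276 bp, but the peak of highest pileup was not the same one throughout. It lay beyond the 3′ end in DMSO libraries 1 and 3 and in all 3MB-PP1 libraries and at the start in DMSO libraries 2 and 4.

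By rank the groups overlapped. The median percentile of members was 90.6, 86.7, 90.3 and 78.7 with DMSO and 88.7, 82.5, 83.5 and 73.8 with 3MB-PP1 (difference -4.44 points, exact permutation p = 0.343). It was -4.32 points in odd and -4.57 in even numbers, and lower with 3MB-PP1 for each of the 4 library numbers. The lowest value in each group was that of the library numbered 4. A percentile higher in every 3MB-PP1 list than in every DMSO list occurred at 6 of the 154 members (3.9%, against 4.02% of all genes and 12.1% of other chromosome 19 genes): ZNF77, ZNF526, ZNF576, ZNF615, ZNF628 and ZNF416. For ZNF77 the shift was from 99.79 to 99.92 on average. For ZNF628 the ranked peak was not the same one throughout, lying at the start in DMSO libraries 2 and 4 and beyond the 3′ end in all others. No member was lower in every 3MB-PP1 list than in every DMSO list (1.4% of all genes).

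A call in all lists of a single treatment occurred at 1 member in each direction. ZNF574 (positions 42068477 to 42081552) had an end peak in 4 of 4 DMSO and 0 of 4 3MB-PP1 lists, a rule met by 0.0551% of all genes. Its DMSO peaks were 1619, 291, 1254 and 181 bp long at percentiles of 86.1, 88.3, 89.2 and 92.3, all within 2 kb downstream of the annotated start, and a second peak at another listed start of the gene (42075200 to 42076617) was in all 8 lists. ZNF599 (34758073 to 34807601) had the reverse pattern, met by 0.12% of all genes, but its 3MB-PP1 peaks were not a single site. They lay near the start at 34807062 to 34807248 in library 1 and 34807096 to 34807458 in library 3, and beyond the 3′ end at 34757316 to 34757481 in library 2 and 34757294 to 34757490 in library 4. ZNF599 also had a peak at an internal listed start in all 8 lists (34771964 to 34773520). With 4 libraries a group, no single gene can pass an adjustment over all genes, and both counts were 0 with windows of 500 bp or 2.5 kb and with -log10 q of at least 2.

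Clusters differed in how often, how long and how high their peaks were called. C1 (ZNF554 to ZNF77, 5 genes, 2.82 to 2.94 Mb), C2 (ZNF414 to ZNF846, 13 genes, 8.51 to 9.79 Mb) and C9 (ZNF628 to ZNF835, 16 genes, 55.48 to 56.67 Mb) had median percentiles of 96.1, 96.0 and 96.3 averaged over 8 libraries. C9 also had long peaks, 1276 bp on average. C4 (ZNF101 to ZNF254, 37 genes, 19.67 to 24.13 Mb), next to the centromere, had the shortest median peaks, 601 bp, a share of 68.6% and 0.302% of its interior covered. C6 (ZNF565 to ZNF573, 26 genes, 36.18 to 37.78 Mb) had the lowest median percentile, 66.1. C5 (ZNF302 to ZNF792, 5 genes, 34.68 to 34.96 Mb) had the lowest end-peak share, 50%, and the largest covered interior, 6.22%. A listed start was found for 4 of its genes, and ZNF302, ZNF181 and ZNF599 had a peak there in all 8 lists.

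The remaining clusters lay between these. C3 (ZNF653 to ZNF791, 25 genes, 11.48 to 12.63 Mb) had a mean share of 85% and C7 (ZNF575 to ZNF180, 23 genes, 43.53 to 44.5 Mb) 90.8%. C8 (ZNF175 to ZNF331, 39 genes, 51.57 to 53.58 Mb) had 68.9% and C10 (ZNF264 to ZNF446, 43 genes, 57.19 to 58.49 Mb) 83.7%. ZNF331, an imprinted gene at the end of C8, had an end peak in 3 lists with 3MB-PP1 and none with DMSO, but peaks at listed starts in all 8. The 3 calls were 3 different sites, at 53503441 to 53503882 near the start in library 1 and beyond the 3′ end at 53580341 to 53580862 in library 2 and 53581254 to 53582062 in library 3.

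**Figure D4:**
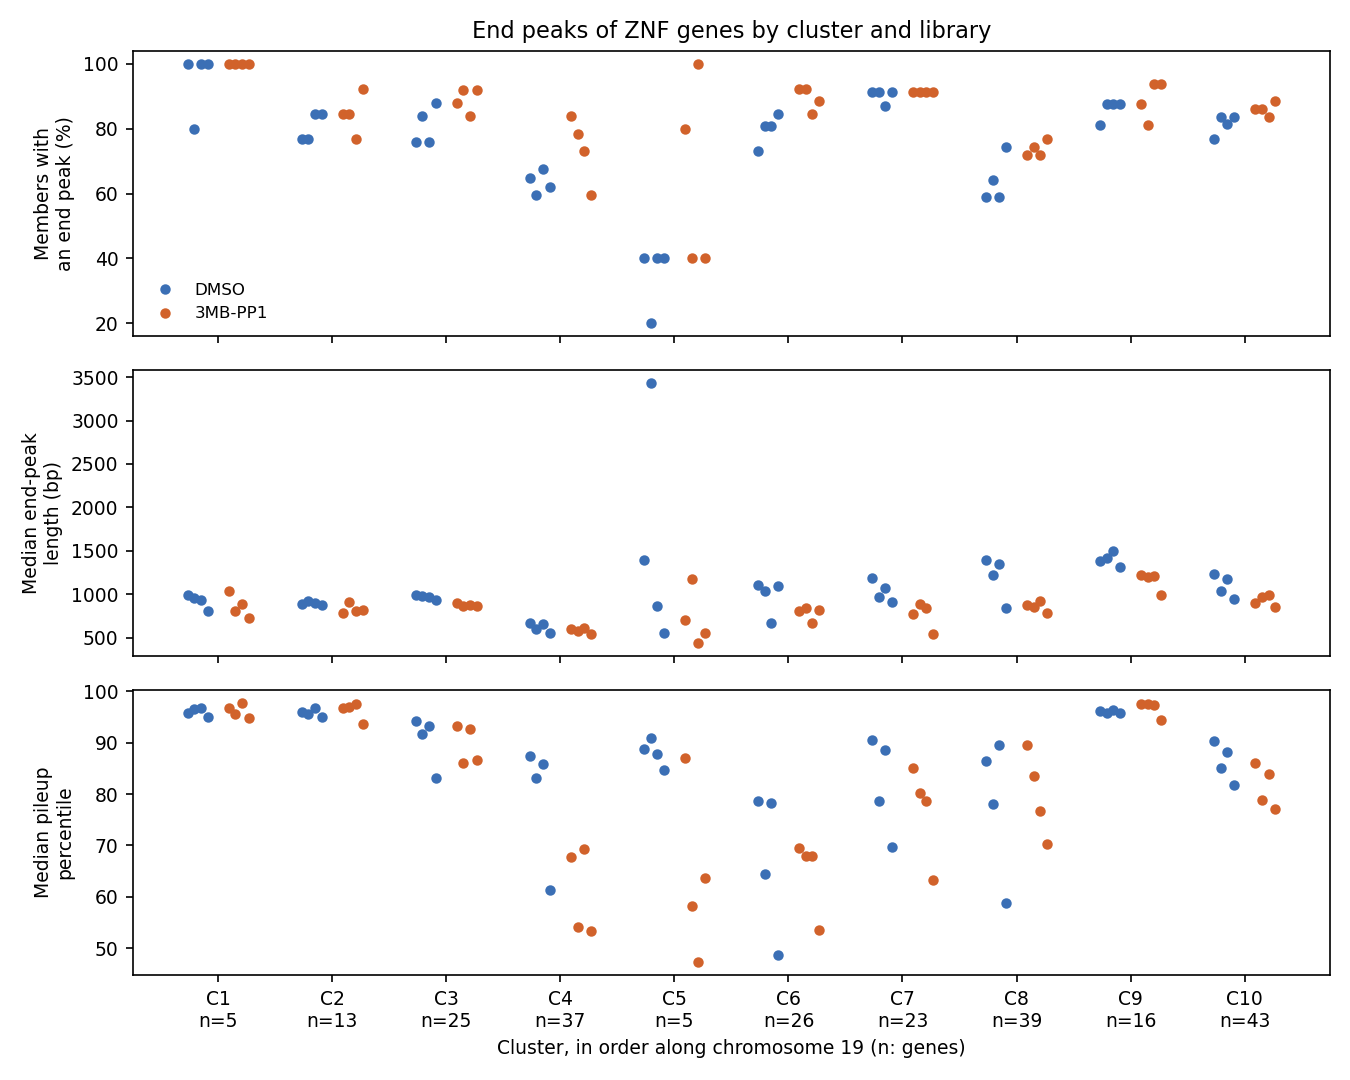
Percent of members with an end peak, median end-peak length (bp) and median pileup percentile by cluster (C1 to C10, n genes under each) and library (points, DMSO and 3MB-PP1). C4 and C8 have low shares, C4 the shortest peaks, and C1, C2 and C9 percentiles of 93.5 to 97.7 in every library; in C5, with 5 genes, single libraries range from 20% to 100%.

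By treatment, the mean end-peak share was higher with 3MB-PP1 in 10 of 10 clusters, and 0 of 10 had an exact permutation p of 0.05 or less (smallest adjusted p 0.343 over clusters). C4 had 64.9%, 59.5%, 67.6% and 62.2% with DMSO and 83.8%, 78.4%, 73.0% and 59.5% with 3MB-PP1, so the library numbered 4 went the other way (difference 10.1 points, exact permutation p = 0.171). C6 had 73.1%, 80.8%, 80.8% and 84.6%, and then 92.3%, 92.3%, 84.6% and 88.5% (difference 9.62 points, exact permutation p = 0.0571). C4 also had 12 of its 37 members (32.4%) called in more 3MB-PP1 lists and 1 in more DMSO lists, against 14.2% and 10.4% of all genes. The share called in more 3MB-PP1 lists was 60% in C5, 30.8% in C6 and 4.35% to 25.6% in the other clusters. Among the 12 was ZNF208 (1 DMSO list and 4 3MB-PP1 lists), named after its values were seen. The cluster's median percentile was 79.5 ± 12.2 with DMSO and 61.1 ± 8.56 with 3MB-PP1 (SD, n = 4), with overlap (exact permutation p = 0.0857).

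In 10 of 10 clusters the 3MB-PP1 group had the lower median peak length. It did not overlap between groups in C3 (969 and 875 bp), C7 (1034 and 762 bp) and C9 (1400.5 and 1151 bp), each with an exact permutation p of 0.0286 and an adjusted p of 0.0952, so 0 of 10 passed. In C9 the libraries had 1378, 1411.5, 1502 and 1310.5 bp with DMSO and 1216.5, 1195, 1207 and 986 bp with 3MB-PP1. C4, with the shortest peaks, differed least, 620 against 582 bp (exact permutation p = 0.257).

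Position within a cluster was examined with the outermost 2 members on each side (40 genes) against the inner 192. Edge members had an end peak in 85.6 ± 4.58% of cases and inner members in 78.3 ± 4.84% (SD, n = 8 libraries), with edge above inner in 8 of 8 libraries, by 7.37 points (exact sign-flip permutation p = 0.00781, adjusted p = 0.00955 over 11). With gaps of up to 1 Mb the difference was 2.32 points (exact permutation p = 0.289). Inner members went from 74.2 ± 2.77% to 82.3 ± 1.85% with 3MB-PP1 without overlap (exact permutation p = 0.0286, adjusted p = 0.114 over 28), and edge members from 83.8 ± 4.33% to 87.5 ± 4.56% with overlap (SD, n = 4 each). The change in the edge-inner gap, -4.32 points, was within the spread (exact permutation p = 0.286). Clustered members exceeded the 14 isolated members by 4.53 points, in 7 of 8 libraries (exact permutation p = 0.0234). That sign did not hold under other settings: it was -10.1 with a 2.5 kb window, -7.43 with gaps of up to 1 Mb and -3.61 with -log10 q of at least 2.

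Promoter letters and calls were set side by side for the 216 members with a sequence. Letters were read in 1 promoter per gene, that of the listed start nearest the annotated start, whereas a peak at any listed start counted as a call. Letters and calls can therefore belong to different starts, although 83.3% of these members had a single listed start. At ZNF112, for example, letters were read at the annotated start, where no list had a peak, and the calls came from another start. The median number of CpG dinucleotides was 21 in the 158 members with a peak at a listed start in all 8 lists, 17 in the 53 with 1 to 7 and 16 in the 5 with none. The ETS core stood in 55.7%, 54.7% and 60% of these, and CCAAT in 53.2%, 58.5% and 40%. Similar letters went with different calls: ZNF726 holds 2 CCAAT boxes and 1 ETS core and shares 84.3% of aligned bases with ZNF91, yet ZNF91 was called at its start in 8 lists and ZNF726 in none. Members of C4 with percentiles near those of other clusters were ZNF430 (90.6 with DMSO and 94.4 with 3MB-PP1 on average), ZNF486 (91.9 and 87.2) and ZNF254 (90.2 and 87.8), named after their values were seen.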

How the data were processed

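ATAC-seq peak lists of 8 libraries were used as deposited, 1 list per library, so peaks had been called per library. Per the submitters' processing notes, MACS2 and DESeq2 were used and the build was hg38, with no role or version given. The aligner, read filters, Tn5 shift, control and caller settings are not given in the sources used here, and they set how many peaks are called and how long they are. The lists have no header. From the values, each deposited line holds a length in bp (start and end counted from 1), a pileup, which is the authors' coverage signal with no stated scaling, the authors' -log10 p and -log10 q within the list (largest q 0.1), and the authors' fold enrichment, a ratio to local background. Values were used to rank or filter within a list. Fold enrichment was not used.

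Genes, symbols and ends came from the RefSeq table of GRCh38.p14; strand and promoter sequences came from the RefSeq promoter table for 216 members, and 30 had no entry. A gene's end peak was the peak of highest pileup overlapping 1 kb around either end. Group means were compared by exact permutation of libraries, and levels within libraries by exact sign flips. The labels describe the 4 libraries of a group as biological replicates. The members and gene lists were chosen with earlier results of these data known. Genes were named by rule: calls in all lists of a single treatment, the 5 highest percentiles, the first 8 without an end peak, the ends of each cluster, the transposon repressors with ZNF274, and the 3 longest. Others are said to be chosen after their values were seen or belong to a count given in full. Only peaks at -log10 q of 2 or more, lists cut to the length of the shortest, windows of 500 bp and 2.5 kb, ranking by -log10 p, genes called in all 8 lists, other genes outside clusters, gaps of 250 kb and 1 Mb, leaving out each library, the replicate block and odd and even numbers were tried, and listed starts were added after the data were seen. Promoters were aligned globally with Biopython 1.88. The software was matplotlib 3.10.9, scipy 1.17.1, pandas 2.3.3, numpy 2.4.6 and Python 3.11.15, and intervals were checked against bedtools 2.31.1 and tested on simulated data. No pair of lists shared more than 0.0339% of identical positions.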

Additional observations from a re-analysis of the deposited data

Results flagged for a closer look

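Among the 14 members outside clusters, the end-peak share was 78.6% in DMSO library 3 against 71.4% in each of the other DMSO libraries, which set that library apart from the rest of its group. In the 3MB-PP1 group the library numbered 4 stood apart, with 71.4% against 78.6% in each of the others. Each is a difference of 1 gene out of 14. These were 2 of 34 groups of 4 libraries examined, and chance marks about 1 in 20 where values vary continuously. That rate does not apply to these 2 marks. The share took only the values 71.4% and 78.6%, so any group with 1 library apart from the rest is marked.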

How the results depend on the processing

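Of 272 alternative values for the main measures, 214 were classed as unchanged. For tests this meant the same direction and the same side of the unadjusted threshold of 0.05. For counts, such as clusters past the threshold, it meant an equal or similar number. With -log10 q of at least 2, the treatment difference was -4.37 points for the member share, -1.53 for its excess over other genes, -0.149 for covered interior and -4.98 for the start minus 3′ gap, and clustered minus isolated was -3.61. The length gap to other genes was then 98.4 bp (exact permutation p = 0.0286). Cluster shares differed by -10.0 (C1), -3.85 (C2), -7.0 (C3), -3.38 (C4), -3.85 (C6), -8.7 (C7), -7.81 (C9) and -5.23 points (C10), and lengths by 132 (C1), 2.88 (C2) and 8.75 bp (C4). One-treatment calls were 0 in both directions there and with either window, and 0 for 3MB-PP1 at equal list length, where C1's share differed by -5.0 points and the difference in covered interior between members and others was 0.915 points (exact p = 0.0286). Cluster shares past the threshold numbered 1 of 10 with either window or equal list length. With 500 bp the treatment difference in the start minus 3′ gap was 3.59 points (exact p = 0.0286), and with 2.5 kb it was -2.78, the member excess -1.92 and clustered minus isolated -10.1. With 1 Mb gaps the last was -7.43 and edge minus inner 2.32. Against genes outside clusters the member excess was 3.56 points. In genes called in all 8 lists, length differed by -158 bp for members and its gap to others by 109 bp (exact p = 0.0286). The cause was not tested.

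Leaving out each library gave 6.13 to 8.3 points for the member share and -206 to -137 bp for length, and 0 clusters past the threshold by length in place of 3, but no exact p below 0.0571 is possible with 3 against 4. The start minus 3′ difference ranged from -0.193, without 3MB-PP1 library 1, to 2.28. With the replicate block (16 assignments, smallest p 0.125) the share difference of 7.11 points and the length difference of -174 bp had p = 0.125, exact permutation, and 0 clusters passed by length. Same-numbered libraries correlated by 0.0285 to 0.0729 in their deviations over all genes and by 0.00567 to 0.247 over members. Since not every pair exceeded 0.1, pairing was not assumed, although 7 of 8 libraries (4 of 8 over members) correlated best with their own number, a hint from the data and not the design. Within odd numbers the differences were 8.94 points and -215 bp, and within even numbers 5.28 points and -132.5 bp. Depth is unknown, and it limits every missing call.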

Other observations

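The longest run of neighbouring members with an end peak in at most 5 lists lay in C4. It holds 10 genes in a row, from ZNF43 to ZNF728 (21.8 to 23 Mb), namely ZNF43, ZNF208, ZNF257, ZNF676, ZNF729, ZNF98, ZNF492, ZNF99, ZNF723 and ZNF728. Of 80 possible calls (10 genes in 8 lists) 21 were made, 6 of 40 with DMSO and 15 of 40 with 3MB-PP1. The mean end-peak share was 63.5% (DMSO) and 73.6% (3MB-PP1) over all C4 members, and 75.5% and 77.2% over all genes. The run was picked by these same calls, so no treatment difference is read from it. ZNF676 was called in no list. Peaks covered at most 0.409% of any of these gene interiors, averaged over the 8 lists. All 5 of the promoters with a sequence hold CCAAT and an ETS core, and their median CpG number is 12. The run was chosen after its values were seen and has no test.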
